A study of Mus musculus with 14 samples.

Results

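Heat shock proteins and J-domain co-chaperones were followed in mouse embryonic hearts that carried different numbers of intact Irx3 and Irx5 copies. The genes were taken by name: every probe set annotated with exactly 1 gene symbol that begins with Dnaja, Dnajb, Dnajc, Hspa, Hspb, Hspd, Hspe, Hsph, Hsp90 or Grpel, with the highest-mean probe set kept for each gene. This gave 74 of the 19931 genes measured. By known location, 44 of them act in the cytosol, nucleus or on vesicles, 13 in the endoplasmic reticulum (ER) and 10 in mitochondria. Another 4 J-domain genes (Dnajc4, Dnajc22, Dnajc25 and Dnajc28) were assigned no location, and 3 genes (Hspb11, Hspbp1 and Hspbap1) carry the prefix without being heat shock or J-domain proteins. The rule used no measured genotype difference.

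The study set 4 genotypes side by side at embryonic stage E12.5, each as heart RNA on Affymetrix GeneChip Mouse Gene 1.0 ST arrays, 14 arrays in all. Irx3 and Irx5 encode homeodomain transcription factors of the Iroquois family. Irx5+/- hearts (3 arrays, both Irx3 copies intact) served as the reference. The mutant groups were Irx3-/-;Irx5+/- with 4 arrays, Irx5-/- with 3 and Irx3-/-;Irx5-/-, called double mutants here, with 4. Every group, the reference included, lacked at least 1 Irx5 copy, and no array came from a heart with both genes intact. Strain, sex, the way the alleles were made and whether each array was a separate embryo are not given in the labels, so the p-values cover the spread from sample to sample, which may be technical.

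HSP70 proteins bind unfolded stretches of other proteins in a cycle driven by ATP. J-domain proteins bring them their clients and speed up ATP hydrolysis, and nucleotide exchange factors such as GRPEL1 reset the cycle. HSP90 acts later on kinases and receptors, HSP60 (Hspd1) with its lid HSP10 (Hspe1) folds proteins inside mitochondria, and small heat shock proteins hold unfolding proteins in soluble complexes without using ATP. In heart and skeletal muscle several small heat shock proteins are abundant at the contractile apparatus. The stress-inducible cytosolic members are classic targets of heat shock factor, whereas ER members such as Hspa5 (BiP) are targets of the unfolded protein response.

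The promoter windows of 5 members are printed because they carry the letters of these regulatory elements. Windows run from 250 bases before to 50 bases after the annotated start (RefSeq, build GRCm38.p6), and 60 of the 74 members had one. The heat shock element was searched as GAANNTTCNNGAA or TTCNNGAANNTTC, which are reverse complements, so that both strands were covered. It was found in 198 of 32851 promoters of all genes (0.603%) and in 6 of 77 promoters of members (7.79%), belonging to Hspd1, Hspe1, Hsph1 and Dnajb6. The stress-inducible Hspa1a, Dnajb1 and Hsp90aa1 are not among them. Whether each of those had a window is not given, and the search was for exact letters, so it does not sort heat shock factor targets from other members. Hspd1 and Hspe1 lie head to head, and their windows overlap on opposite strands and share the same element. Hsph1 and Dnajb6 each enter with 2 overlapping windows that hold the same element, so the 6 promoters are not 6 separate sites. In the Hsph1 window printed below the match begins 36 bases after the annotated start. The Hspd1 window is chr1:55087883-55088182 on the minus strand and the Hsph1 window chr5:149636287-149636586 on the minus strand. Capitals mark the element, and in Hspd1 they cover 2 overlapping matches.
Hspd1: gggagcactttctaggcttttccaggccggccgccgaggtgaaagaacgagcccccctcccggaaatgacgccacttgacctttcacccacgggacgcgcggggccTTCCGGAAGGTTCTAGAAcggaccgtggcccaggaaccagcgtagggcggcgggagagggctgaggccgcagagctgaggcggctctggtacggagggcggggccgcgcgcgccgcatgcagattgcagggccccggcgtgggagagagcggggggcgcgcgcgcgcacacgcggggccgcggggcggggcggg
Hsph1: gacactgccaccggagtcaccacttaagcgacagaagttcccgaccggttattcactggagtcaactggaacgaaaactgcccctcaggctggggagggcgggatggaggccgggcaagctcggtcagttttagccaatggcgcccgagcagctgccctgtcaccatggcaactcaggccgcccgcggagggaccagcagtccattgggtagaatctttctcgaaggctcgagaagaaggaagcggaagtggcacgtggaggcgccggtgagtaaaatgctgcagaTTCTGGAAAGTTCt

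The ER stress element was searched as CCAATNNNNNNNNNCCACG or its reverse complement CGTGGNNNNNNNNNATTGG. It was found in 39 of the 32851 promoters (0.119%) and in 3 of the 77 member promoters (3.9%), those of Hspa5, Hsp90b1 and Dnajc3, all of them ER members. Windows are chr2:34771840-34772139 on the plus strand for Hspa5, chr10:86705395-86705694 on the minus strand for Hsp90b1 and chr14:118937682-118937981 on the plus strand for Dnajc3. Capitals mark the element, which the Hsp90b1 window holds on 2 places, once in each orientation. A match describes the letters of the window only.
Hspa5: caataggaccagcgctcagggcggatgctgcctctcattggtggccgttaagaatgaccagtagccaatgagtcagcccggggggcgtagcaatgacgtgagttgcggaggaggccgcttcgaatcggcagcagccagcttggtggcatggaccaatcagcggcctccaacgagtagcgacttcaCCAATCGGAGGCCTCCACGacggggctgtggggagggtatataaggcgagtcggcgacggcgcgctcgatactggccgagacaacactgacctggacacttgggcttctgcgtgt
Hsp90b1: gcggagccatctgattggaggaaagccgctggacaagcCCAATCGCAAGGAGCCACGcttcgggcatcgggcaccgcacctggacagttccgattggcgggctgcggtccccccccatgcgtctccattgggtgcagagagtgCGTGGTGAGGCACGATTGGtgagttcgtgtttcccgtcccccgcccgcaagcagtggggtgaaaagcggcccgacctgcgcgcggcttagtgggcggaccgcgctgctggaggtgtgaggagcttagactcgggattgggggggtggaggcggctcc
Dnajc3: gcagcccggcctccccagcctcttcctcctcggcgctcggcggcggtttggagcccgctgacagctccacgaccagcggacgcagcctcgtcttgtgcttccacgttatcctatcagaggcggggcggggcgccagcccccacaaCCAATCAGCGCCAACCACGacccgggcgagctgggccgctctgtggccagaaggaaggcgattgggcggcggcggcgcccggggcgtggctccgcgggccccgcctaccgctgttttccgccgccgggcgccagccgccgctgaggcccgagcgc

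Values are log2 intensities, so a difference of 1 is a fold of 2. Array medians lay between 7.89 and 7.99, and 14 of the 74 members had a mean level below the median gene. Irx3 read 8.43 to 8.53 on the reference arrays, 7.87 to 8.17 in Irx3-/-;Irx5+/-, 8.14 to 8.25 in Irx5-/- and 7.60 to 7.86 in double mutants. Irx5 read 8.19 to 8.41, 8.21 to 8.31, 7.86 to 8.34 and 7.52 to 8.43 in the same order, so that its groups overlapped. The labels do not say whether these probe sets lie in the deleted parts. One array goes against itself in the labels: Irx3-/-;Irx5+/- replicate 4 has that genotype in its title, source and genotype fields but Irx5-/- in the wording of its description. It was kept by its genotype field, and values without it are given below.

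The heart identity of the samples was clear, with 18 of 18 sarcomere markers above the array median on every array, but the arrays differed in them. The mean of these 18 genes, relative to its average over the 14 arrays, was 0.15, -0.62 and -1.65 on the reference arrays. It ran from -0.38 to 0.40 in Irx3-/-;Irx5+/- hearts, from -0.24 to 0.72 in Irx5-/- hearts and from 0.15 to 0.57 in double mutants. In double mutants against the reference all 18 markers were above 0 (median 1.21). The mean of 14 endothelial and endocardial markers ran from 0.32 to 0.64 in the reference, 0.04 to 0.52 in Irx3-/-;Irx5+/-, -0.55 to -0.15 in Irx5-/- and -0.86 to 0.19 in double mutants. Ranges in the same order were -0.42 to -0.34, -0.29 to 0.85, -0.57 to -0.39 and -0.59 to 1.22 for the 6 measured erythroid markers. They were -0.35 to 0.16, -0.42 to 0.06, -0.82 to 0.62 and -0.47 to 1.08 for 7 epicardial markers, and -0.09 to 0.40, -0.14 to 0.16, -0.40 to 0.87 and -0.72 to -0.05 for 13 immediate early genes. In bulk heart RNA, fewer cells of a type and less RNA per cell cannot be told apart.

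No member passed the threshold in any comparison (limma over all genes, Benjamini-Hochberg adjusted p under 0.05). The share of all genes called was 0% for Irx3-/-;Irx5+/- against the reference, 0% for Irx5-/- and 0.0201% for double mutants. It was 0.00502% for double mutants against Irx3-/-;Irx5+/-, 0% against Irx5-/-, 0% for the interaction and 0.00502% for any difference between the 4 genotypes. The smallest adjusted p of a member was 0.0779, for Hspb8 in double mutants against the reference. The interaction asks whether Irx3 loss acts alike with and without the last Irx5 copy: it is the double mutant minus Irx5-/- difference, less the Irx3-/-;Irx5+/- minus Irx5+/- difference. All 3 comparisons with the reference share its 3 arrays, so their values are given side by side and not as support for each other.

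At an unadjusted p under 0.05, the members nearest to the threshold were mostly higher than the reference. In Irx3-/-;Irx5+/- hearts 6 of 74 members reached it against 5.07% of all genes, 5 higher (background 2.85%) and 1 lower (background 2.22%). In Irx5-/- hearts 15 of 74 (20.3%) did against 10.6% of all genes, 13 higher (background 5.99%) and 2 lower (background 4.66%). In double mutants 19 of 74 (25.7%) did against 13.5% of all genes, 17 higher (background 7.9%) and 2 lower (background 5.56%). Double mutants had 6 such members against Irx3-/-;Irx5+/- hearts (background 7.67%), 5 higher (background 4.06%) and 1 lower (background 3.61%). Against Irx5-/- hearts they had 5 (background 3.63%), 1 higher (background 1.5%) and 4 lower (background 2.13%). The interaction gave 4 (background 4.04%), 1 above 0 (background 1.89%) and 3 below (background 2.16%). Any difference between the 4 genotypes gave 15 (background 9.32%). Single arrays moved several of these counts: the 6 became 3 when Irx5+/- replicate 3 was left out and 2 when Irx3-/-;Irx5+/- replicate 1 was, and the 15 in Irx5-/- hearts became 8, 9 and 7 without Irx5+/- replicate 2, Irx5+/- replicate 3 and Irx5-/- replicate 2. The double mutant count against Irx3-/-;Irx5+/- became 10 without Irx3-/-;Irx5-/- replicate 1 and 3 without replicate 4, that against Irx5-/- became 11 without Irx5-/- replicate 2, and the count for any difference became 9 without Irx5+/- replicate 2 or 3, Irx3-/-;Irx5+/- replicate 2 or Irx3-/-;Irx5-/- replicate 4. Without the array of doubtful label the 4 counts it enters were 5, 7, 4 and 10, and 0 members were called. Shares of all genes with an array left out are not given, so these shifts cannot be set against the background.

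Groups that did not overlap were counted as well. Of the 74 members, 6 lay above the reference without overlap in Irx3-/-;Irx5+/- hearts (background 2.86%), 10 in Irx5-/- hearts (background 6.71%) and 13 in double mutants (background 6.48%). Below it without overlap lay 0 (background 2.87%), 4 (background 9.52%) and 2 (background 5.58%). Double mutants lay above Irx3-/-;Irx5+/- hearts without overlap for 6 members (background 2.64%) and below for 1 (background 2.18%), and above Irx5-/- hearts for 1 (background 2.13%) and below for 1 (background 1.98%). Counted by sign alone, 52, 53 and 51 members were above the reference in the 3 mutant groups, against 50%, 44.4% and 43.9% of all genes. Against Irx3-/-;Irx5+/- 48 were above 0 (background 44.5%), against Irx5-/- 49 (background 52.8%), and in the interaction 31 (background 50.3%).

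With the sarcomere mean of each array as a term in the fit, the members at an unadjusted p under 0.05 became 3, 7 and 8 in the 3 comparisons with the reference, against 5.95%, 8.57% and 8.2% of all genes. The median over the 74 members in those comparisons went from 0.07, 0.11 and 0.09 to -0.02, 0.04 and 0.05. Over all genes the median was 0.00, -0.03 and -0.03 without the term and 0.00, -0.02 and -0.01 with it. Because the sarcomere mean differs between genotypes, muscle content and genotype cannot be told apart by this term.

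**Figure D1:**
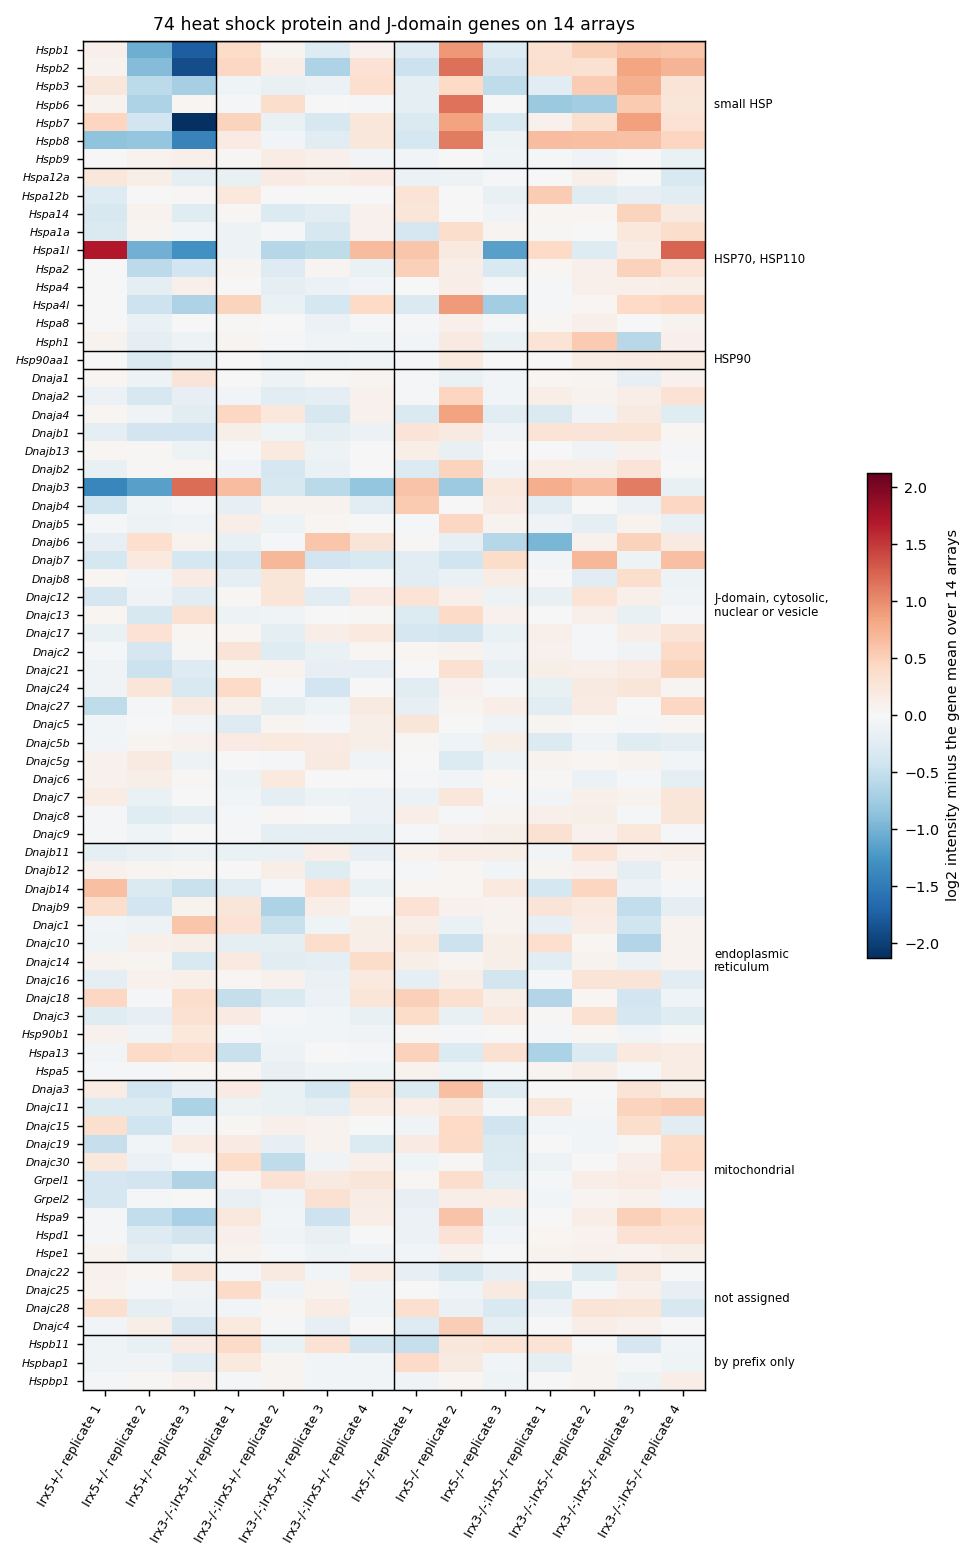
Heat map of the 74 members (rows, grouped by class) on the 14 arrays (columns, vertical lines between genotypes), coloured by log2 intensity minus the gene's mean over all arrays. In the upper block most small heat shock proteins are blue (low) on Irx5+/- replicates 2 and 3 and red (high) on Irx5-/- replicate 2, with Hspb9 near 0 throughout, while the ER rows mix both colours on every array.

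The heat map shows that single arrays account for many of the extremes. Irx5-/- replicate 2 held the highest value of 20 of the 74 members, and Irx3-/-;Irx5-/- replicate 4 that of 11. The lowest value lay on Irx5+/- replicate 3 for 14 members, on replicate 2 for 12 and on replicate 1 for 9. The median residual SD was 0.211 for members and 0.186 for all genes, and 43 of 74 members exceeded the latter.

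The small heat shock proteins showed the widest differences of any class described here. Their 7 members had a median log2 difference from the reference of 0.75 in Irx3-/-;Irx5+/-, 0.76 in Irx5-/- and 1.10 in double mutants. In each of these comparisons 6 of 7 were above 0 (background 50%, 44.4% and 43.9% of all genes) and 0 were called. At an unadjusted p under 0.05, 2, 2 and 5 of the 7 were higher (background 2.85%, 5.99% and 7.9%). The class mean on each array, relative to the 14-array average, was 0.02, -0.62 and -1.11 on the reference arrays, beside sarcomere means of 0.15, -0.62 and -1.65. The double mutant arrays read 0.05, 0.22, 0.61 and 0.35, beside sarcomere means of 0.15, 0.29, 0.57 and 0.42. Leaving out Irx5+/- replicate 3 gave medians of 0.37 in Irx3-/-;Irx5+/- and 0.49 in double mutants, and leaving out Irx5+/- replicate 1 gave 1.14, 1.33 and 1.67 in the 3 groups. The Irx5-/- median was 0.37 without Irx5-/- replicate 2. With the sarcomere term the 3 medians were -0.07, -0.02 and 0.03.

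Hspb8, whose product works with BAG3 in clearing damaged proteins in muscle, gave the smallest p of any member. Its log2 intensities were 8.47, 8.50 and 7.91 on the reference arrays, 9.49, 9.26, 9.08 and 9.56 in Irx3-/-;Irx5+/- hearts, 8.96, 10.42 and 9.22 in Irx5-/- hearts and 9.97, 9.96, 9.94 and 9.78 in double mutants. All 11 mutant arrays lay above all 3 reference arrays, and the double mutants also lay above every Irx3-/-;Irx5+/- array. Group means were 8.29 ± 0.33 (SD, n = 3), 9.35 ± 0.22 (SD, n = 4), 9.53 ± 0.78 (SD, n = 3) and 9.91 ± 0.09 (SD, n = 4). Hspb8 was 1.62 ± 0.27 (SE) higher in double mutants than in the reference, a 3.08-fold difference with a 95% interval of 1.03 to 2.21 (log2), and did not pass (adjusted p = 0.0779). It did pass when the fit used array weights (1.61 ± 0.25, adjusted p = 0.0489) and when the fit held only the arrays of those groups (1.62 ± 0.16, adjusted p = 0.0238). It was 1.43 without Irx5+/- replicate 3 (adjusted p = 0.174) and 1.00 ± 0.26 with the sarcomere term (adjusted p = 0.297). The differences from the reference were 1.06 ± 0.27 in Irx3-/-;Irx5+/- (adjusted p = 0.768) and 1.24 ± 0.29 in Irx5-/- hearts (adjusted p = 0.252), the latter 0.80 without Irx5-/- replicate 2.

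On the 3 reference arrays Hspb1 (HSP25 in mouse) and Hspb2 lay in the same order as the sarcomere mean. Hspb1 read 10.72, 9.58 and 8.85 in the reference, 10.997, 10.67, 10.34 and 10.70 in Irx3-/-;Irx5+/-, 10.34, 11.53 and 10.33 in Irx5-/-, and 10.93, 11.12, 11.23 and 11.20 in double mutants. The double mutants lay above the reference without overlap, by 1.40 ± 0.37 (SE, adjusted p = 0.158), while the other groups overlapped it because Irx5+/- replicate 1 was high. Without that replicate the Hspb1 difference was 1.90 and passed (adjusted p = 0.0465), without Irx5+/- replicate 3 it was 0.97, and with the sarcomere term it was 0.30 ± 0.15. A second Hspb1 probe set gave 1.33. Hspb2, which shares its promoter region with the small heat shock gene Cryab, read 10.21, 9.22 and 8.25 in the reference and 10.48, 10.46, 10.98 and 10.86 in double mutants. Its difference was 1.46 ± 0.45 (SE, adjusted p = 0.195), or 0.98 without Irx5+/- replicate 3 and 0.10 ± 0.17 with the sarcomere term.

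Hspb7, a small heat shock protein of heart muscle, had the widest reference group of the class. Its reference arrays read 11.41, 10.54 and 8.82, and the double mutants 11.04, 11.28, 11.83 and 11.27, inside which the highest reference array fell. The difference of 1.10 ± 0.47 (SE, adjusted p = 0.335) was 0.38 without Irx5+/- replicate 3, 1.67 without replicate 1 and -0.35 ± 0.17 with the sarcomere term. Hspb3, a muscle small heat shock protein, read 9.09, 8.28 and 8.13 in the reference and 8.61, 9.38, 9.59 and 9.11 in double mutants, with overlap (0.67 ± 0.28, adjusted p = 0.32). Hspb6 (HSP20) differed by 0.01 ± 0.36 in the same comparison. Its double mutant arrays split, at 8.75 and 8.80 against 10.10 and 9.80, around the reference values of 9.61, 8.87 and 9.57. Hspb9, described in testis, read 8.23 to 8.32 in the reference and 8.07 to 8.21 in double mutants, which did not overlap, and was -0.13 lower without reaching an unadjusted p of 0.05.

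**Figure D2:**
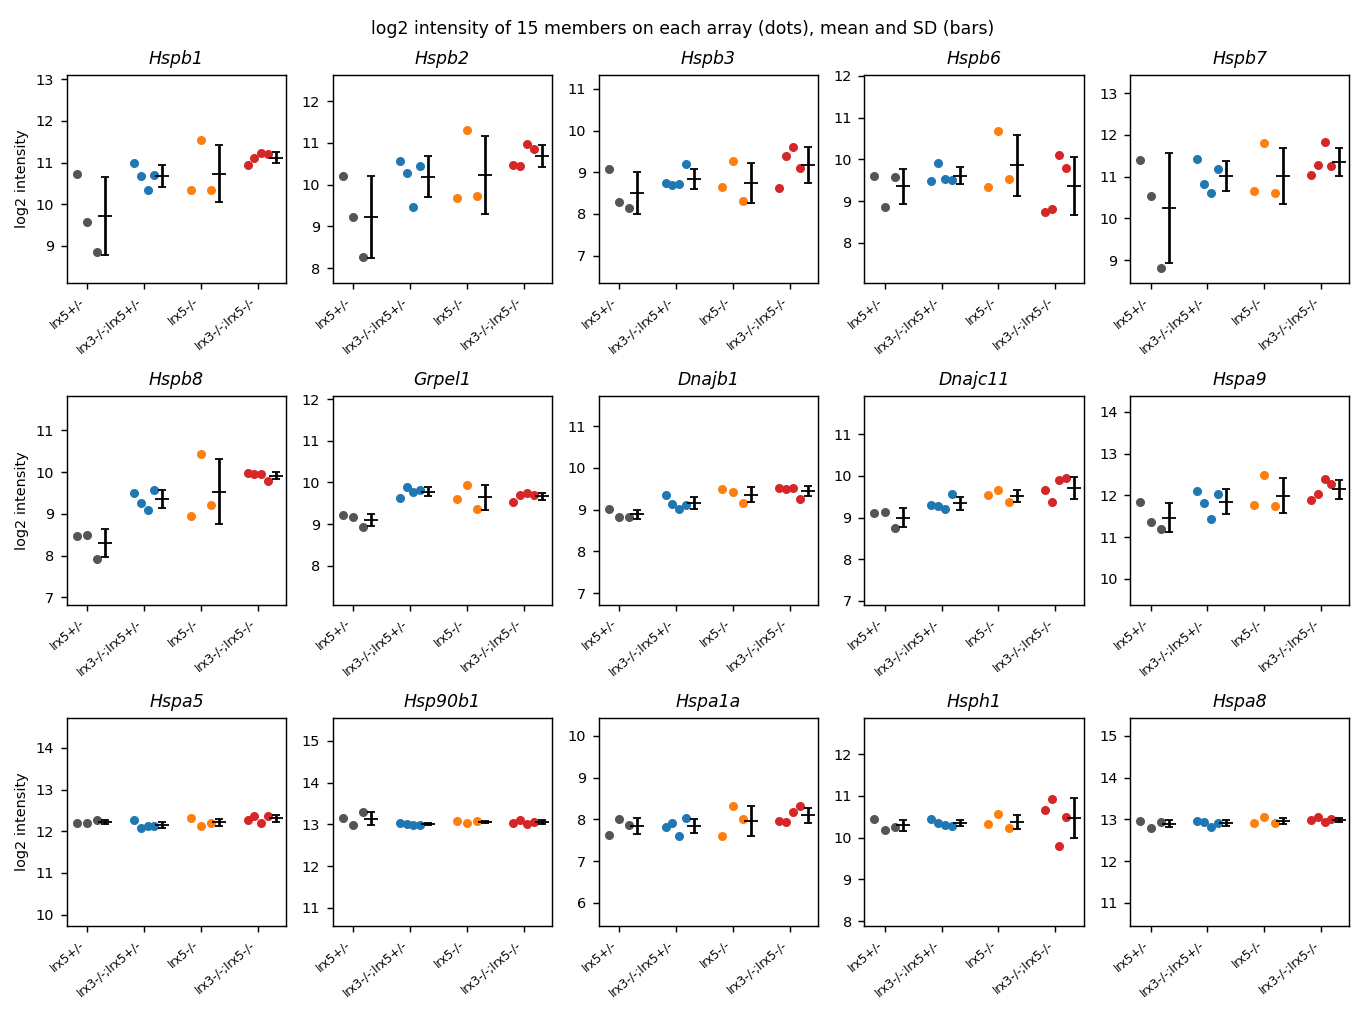
Log2 intensity (vertical axes, all with the same span) of 15 members on each array, by genotype (horizontal axis). Dots are arrays, and the bars beside them give the mean and SD of 3 or 4 arrays. In the Hspb8 panel every mutant dot lies above the reference dots, whereas in the Hspb7 panel the 3 reference dots run from 8.82 to 11.41 and overlap the double mutants, which run from 11.04 to 11.83.

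The 10 cytosolic HSP70 and HSP110 genes had medians of 0.05, 0.11 and 0.21 in Irx3-/-;Irx5+/-, Irx5-/- and double mutant hearts against the reference, with 9 of 10 above 0 each time. Over all genes 50%, 44.4% and 43.9% were above 0. At an unadjusted p under 0.05, 0, 0 and 2 of the 10 were higher (background 2.85%, 5.99% and 7.9%). For the abundant constitutive HSP70, Hspa8, the values depended on the probe set. On the probe set used, arrays ran from 12.80 to 12.95 in the reference and 12.81 to 12.97 in Irx3-/-;Irx5+/-. They ran from 12.90 to 13.05 in Irx5-/- and 12.93 to 13.05 in double mutants. All groups overlapped, and the double mutant difference was 0.10 ± 0.08 with a 95% interval of -0.08 to 0.27. A second Hspa8 probe set gave 0.09. Another, which ran from 11.68 to 12.99 over all arrays, gave 0.81. The 2 probe sets shared with small nucleolar RNAs, left out by the rule, gave 0.64 and 0.64. Which of these probe sets best reads the Hspa8 gene was not tested. Hspa1a, the stress-inducible HSP70, read 7.63, 8.0 and 7.87 in the reference and 7.96, 7.93, 8.17 and 8.31 in double mutants. These groups overlapped, at 0.26 ± 0.17 (SE, 95% interval -0.10 to 0.61, adjusted p = 0.534). Hspa1a has a near-identical copy, Hspa1b, and a probe set naming both gave 0.18.

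Among the nucleotide exchange factors of cytosolic HSP70, Hspa4 differed by 0.11 ± 0.09 and Hsph1 by 0.17 ± 0.20 in double mutants. Hsph1, which carries the heat shock element printed above, read 10.67, 10.93, 9.79 and 10.49 on the double mutant arrays, both above and below the reference arrays at 10.45, 10.19 and 10.27. The 2 genes of this class at an unadjusted p under 0.05 lie outside the rule for naming and were chosen after their values were seen. They were Hspa2, a testis-enriched HSP70, at 0.56 ± 0.19 (adjusted p = 0.228), and Hspa14, a ribosome-associated HSP70, at 0.36 ± 0.15 (adjusted p = 0.315). Hspa1l had the widest range of the class, from 7.14 to 10.13 with both ends in the reference. Of the 2 listed cytosolic HSP90 genes only 1 was measured, since Hsp90ab1 had no probe set under the rule. Hsp90aa1, the inducible cytosolic HSP90, read 12.55, 12.26 and 12.41 in the reference and 12.58, 12.72, 12.75 and 12.75 in double mutants. Those groups did not overlap, and the difference was 0.29 ± 0.10 (SE, adjusted p = 0.212), with 0.28 and 0.33 from its other 2 probe sets.

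The 26 J-domain genes of the cytosol, nucleus and vesicles differed little as a class, with medians of 0.09, 0.09 and 0.11 in Irx3-/-;Irx5+/-, Irx5-/- and double mutant hearts. Of them 17, 18 and 17 were above 0 (background 50%, 44.4% and 43.9% of all genes). At an unadjusted p under 0.05, 1, 5 and 4 were higher (background 2.85%, 5.99% and 7.9%). At the same p, 0, 1 and 1 were lower (background 2.22%, 4.66% and 5.56%). Dnajb1 (HSP40), the main stress-inducible partner of cytosolic HSP70, was the member nearest to the threshold. It read 9.01, 8.82 and 8.82 in the reference, 9.35, 9.14, 9.02 and 9.11 in Irx3-/-;Irx5+/-, 9.5, 9.41 and 9.16 in Irx5-/-, and 9.51, 9.51, 9.51 and 9.26 in double mutants. Every mutant array lay above every reference array, although the nearest arrays, at 9.02 and 9.01, nearly touched. Differences from the reference were 0.27 ± 0.11 (adjusted p = 0.956), 0.47 ± 0.12 (adjusted p = 0.252) and 0.56 ± 0.11 (adjusted p = 0.111), the last a 1.48-fold difference. With the sarcomere term they were 0.17 ± 0.13, 0.37 ± 0.14 and 0.43 ± 0.15.

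Other J-domain genes of this class stood out in single comparisons without passing. Dnajc5b, a cysteine string protein of vesicles, read 6.38, 6.42, 6.37 and 6.32 in Irx3-/-;Irx5+/- hearts and 5.91, 6.12, 5.95 and 5.99 in double mutants. These groups did not overlap, and the difference was -0.38 ± 0.08 (SE, adjusted p = 0.281), with -0.24 ± 0.09 against the reference (adjusted p = 0.254). All these values lie low on the scale of the array. Dnajc9, a histone co-chaperone, was 0.32 ± 0.09 higher in double mutants than in Irx3-/-;Irx5+/- hearts (adjusted p = 0.465), at 10.57 to 10.93 against 10.40 to 10.57 without overlap. Dnajc17, a nuclear J-domain protein, read 9.5, 9.47 and 9.71 in Irx5-/- hearts. That was below all 4 double mutant arrays (9.80 to 10.13, a difference of 0.41 ± 0.13, adjusted p = 1) and, by -0.36 ± 0.14, below all 3 reference arrays (adjusted p = 0.391). Dnajc21, which acts in ribosome assembly, was 0.49 ± 0.14 (adjusted p = 0.171) and Dnaja2, a general partner of HSP70, 0.38 ± 0.13 (adjusted p = 0.242) above the reference in double mutants, both without overlap.

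For several J-domain genes the value depends on the probe set. Dnajc13, an endosomal J-domain protein named here after its values were seen, has 15 probe sets, whose double mutant differences from the reference ran from -0.43 to 0.39. The Dnaja1 probe set used gave -0.07, a second gave 0.32 and a probe set that also names Mir207 gave -0.13. Dnajb6, which holds the heat shock element, gave -0.14, and 4 probe sets that also name a predicted gene gave -0.01 to 0.03. Dnajb3 had the widest range of the class, from 5.29 to 7.87 with both ends in the reference.

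ER members differed from the reference in both directions, with class medians near 0. Their 13 genes had medians of -0.07, -0.01 and -0.07 in Irx3-/-;Irx5+/-, Irx5-/- and double mutant hearts against the reference, with 5, 6 and 5 above 0. Single arrays turned the sign of each: the medians were 0.03 without Irx3-/-;Irx5+/- replicate 2, 0.13 without Irx5-/- replicate 2 and, in double mutants, 0.03 when their replicate 3 was left out. Leaving out Irx5+/- replicate 3 also turned the Irx5-/- median, to 0.01. Over all genes 50%, 44.4% and 43.9% were above 0. At an unadjusted p under 0.05, 0, 1 and 1 ER members were higher (background 2.85%, 5.99% and 7.9%). At the same p, 1, 0 and 1 were lower (background 2.22%, 4.66% and 5.56%). The class mean ran from -0.04 to 0.11 in the reference, -0.17 to 0.03 in Irx3-/-;Irx5+/-, -0.02 to 0.17 in Irx5-/- and -0.18 to 0.14 in double mutants. All 4 groups overlapped in it, including the array with the lowest sarcomere mean, Irx5+/- replicate 3, at 0.11.

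Hspa5 (BiP), the central HSP70 of the ER and a standard marker of its stress response, read 12.21, 12.19 and 12.27 in the reference, 12.26, 12.07, 12.13 and 12.13 in Irx3-/-;Irx5+/-, 12.31, 12.14 and 12.20 in Irx5-/-, and 12.28, 12.37, 12.20 and 12.37 in double mutants. The groups overlapped, and the double mutant difference of 0.08 ± 0.09 had a 95% interval of -0.10 to 0.27. Hsp90b1 (GRP94), the HSP90 of the ER, read 13.15, 12.98 and 13.29 in the reference and 12.999 to 13.11 in double mutants, at -0.09 ± 0.09 (95% interval -0.27 to 0.10). Dnajc3 (p58IPK), also with the ER stress element, differed by -0.03 ± 0.19. In double mutants the 3 members whose promoter windows carry that element thus differed from the reference by -0.09 to 0.08, with intervals from -0.43 to 0.37 at the widest, and 0 of them passed.

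Dnajb11 (ERdj3), a soluble partner of BiP, was the ER member that was higher at an unadjusted p under 0.05. It read 10.46, 10.51 and 10.54 in the reference, 10.72, 10.79 and 10.77 in Irx5-/- and 10.60, 10.95, 10.74 and 10.77 in double mutants, both without overlap. Differences were 0.26 ± 0.11 (adjusted p = 0.442) and 0.26 ± 0.10 (adjusted p = 0.297), and with the sarcomere term 0.31 ± 0.13 and 0.33 ± 0.14. The lower ER member was Dnajc18, a J-domain protein of the ER membrane. It read 9.75, 9.29 and 9.69 in the reference, 8.81, 9.0, 9.18 and 9.58 in Irx3-/-;Irx5+/-, 9.82, 9.65 and 9.43 in Irx5-/-, and 8.69, 9.36, 8.90 and 9.23 in double mutants. The 2 Irx3-/- groups thus lay mostly below the 2 groups with intact Irx3, with overlap except between double mutants and Irx5-/- hearts. That difference was -0.59 ± 0.20 (adjusted p = 1), and the differences from the reference were -0.43 ± 0.20 in Irx3-/-;Irx5+/- (adjusted p = 0.975) and -0.53 ± 0.20 in double mutants (adjusted p = 0.27). With the sarcomere term these 3 values were -0.59, -0.44 and -0.55. The array of doubtful label gave 9.58, the highest of its group.

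**Figure D3:**
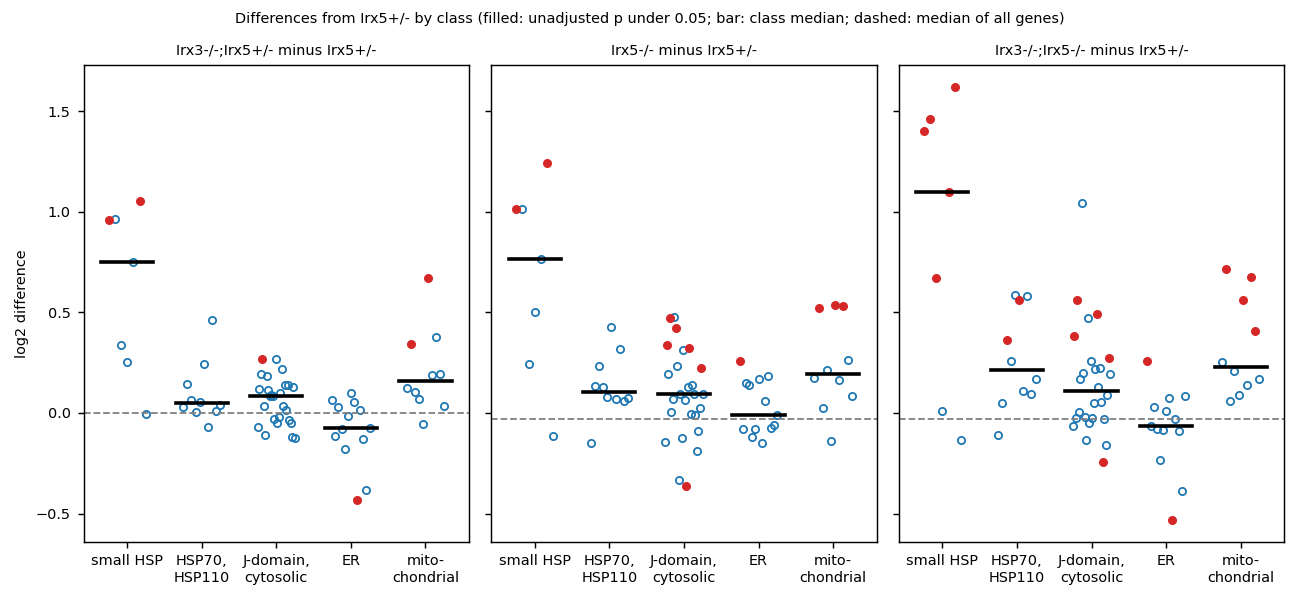
Log2 difference from the Irx5+/- reference (vertical axis) for the members of 5 classes (horizontal axis), in Irx3-/-;Irx5+/-, Irx5-/- and double mutant hearts. Each dot is a gene, filled where the unadjusted p is under 0.05, bars are class medians and the dashed line is the median of all genes, and the small heat shock proteins stand at medians of 0.75 to 1.10 while the ER medians are -0.07 to -0.01.

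Mitochondrial members were above the reference in most cases. Their 10 genes had medians of 0.16, 0.19 and 0.23 in Irx3-/-;Irx5+/-, Irx5-/- and double mutant hearts, with 9, 9 and 10 of 10 above 0, beside medians of 0.00 to -0.03 over all genes. Over all genes 50%, 44.4% and 43.9% were above 0. At an unadjusted p under 0.05, 2, 3 and 4 mitochondrial members were higher (background 2.85%, 5.99% and 7.9%). At the same p, 0 were lower (background 2.22%, 4.66% and 5.56%), and 0 were called. The class mean was -0.07, -0.27 and -0.26 on the reference arrays and 0.01, 0.03, 0.24 and 0.21 on the double mutant arrays. These did not overlap. With the sarcomere term the medians were -0.04, 0.06 and 0.10. The Irx3-/-;Irx5+/- median was 0.29 without Irx5+/- replicate 1. The Irx5-/- median was 0.09 without Irx5-/- replicate 2, 0.30 without its replicate 1 and 0.32 without its replicate 3.

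Grpel1, the nucleotide exchange factor that serves mitochondrial HSP70 during protein import, gave the smallest p of any member in Irx3-/-;Irx5+/- hearts. It read 9.21, 9.16 and 8.93 in the reference, 9.63, 9.88, 9.77 and 9.82 in Irx3-/-;Irx5+/-, 9.61, 9.94 and 9.36 in Irx5-/-, and 9.53, 9.71, 9.74 and 9.69 in double mutants. All 11 mutant arrays lay above the reference arrays, and the 3 mutant groups overlapped one another. Differences were 0.67 ± 0.13 (SE, adjusted p = 0.673), 0.54 ± 0.14 (adjusted p = 0.252) and 0.56 ± 0.13 (adjusted p = 0.125). With the sarcomere term they were 0.50 ± 0.13, 0.37 ± 0.14 and 0.34 ± 0.15. The interaction was -0.65 ± 0.18 (adjusted p = 1), since the double mutant value lay below the sum of the other 2 differences. Its paralogue Grpel2 differed from the reference by 0.19 ± 0.13, 0.17 ± 0.14 and 0.14 ± 0.13 in the 3 mutant groups, all of which overlapped the reference.

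Dnajc11, a J-domain protein linked to the cristae-organising complex of mitochondria, also separated all mutant arrays from the reference. It read 9.12, 9.13 and 8.75 in the reference, 9.31, 9.28, 9.20 and 9.58 in Irx3-/-;Irx5+/-, 9.55, 9.65 and 9.37 in Irx5-/-, and 9.65, 9.38, 9.89 and 9.94 in double mutants. Differences were 0.34 ± 0.15 (adjusted p = 0.961), 0.52 ± 0.16 (adjusted p = 0.332) and 0.72 ± 0.15 (adjusted p = 0.111), the last a 1.64-fold difference that was 0.45 ± 0.17 with the sarcomere term. The first was 0.22 without Irx5+/- replicate 3. Together with Hspb8, Dnajb1 and Grpel1 this made 4 of 74 members with all 11 mutant arrays above the 3 reference arrays, against 0.803% of all genes, and 0 members with all below, against 0.522%. That rule was chosen after the values were seen.

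The chaperones of the mitochondrial matrix had double mutant values that moved towards 0 with the sarcomere term. Hspa9 (mortalin), the mitochondrial HSP70, read 11.85, 11.36 and 11.19 in the reference and 11.89, 12.02, 12.38 and 12.27 in double mutants. These groups did not overlap, though the nearest arrays were 11.85 and 11.89, and the difference was 0.68 ± 0.22 (adjusted p = 0.215), or 0.09 ± 0.16 with the sarcomere term. Hspd1 (HSP60) read 12.45, 12.19 and 12.08 against 12.51, 12.54, 12.77 and 12.77, a difference of 0.41 ± 0.13 (adjusted p = 0.209), or 0.11 ± 0.12 with the term. A second Hspd1 probe set gave 0.47. Hspe1 (HSP10), which shares the bidirectional promoter printed above, differed by 0.17 ± 0.09 (adjusted p = 0.44, 95% interval -0.02 to 0.36) and overlapped, at 12.39 to 12.68 against 12.67 to 12.73. A second Hspe1 probe set gave 0.26. Pseudogenes named for Hspd1, Hspe1, Hspa9, Hspb1, Dnaja1, Dnajb6 and Dnajc19 are listed in RefSeq's mouse gene table, so part of these signals could be shared with copies. Dnaja3, Dnajc15 and Dnajc19, J-domain partners of mortalin and of the import motor, differed by 0.25, 0.06 and 0.21 and overlapped in every comparison.

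**Figure D4:**
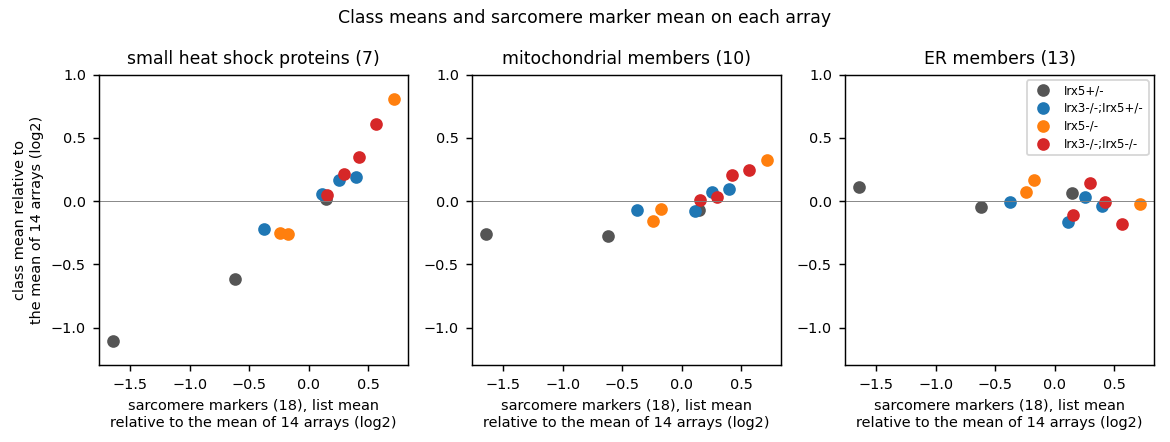
Mean log2 intensity of the small heat shock proteins, mitochondrial members and ER members on each array (vertical axis) against the mean of 18 sarcomere markers (horizontal axis), both relative to their average over the 14 arrays; dots are arrays, coloured by genotype. Small heat shock proteins run from -1.11 to 0.80 along the sarcomere mean, mitochondrial members from -0.27 to 0.32, and ER members stay between -0.18 and 0.17.

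**Figure D5:**
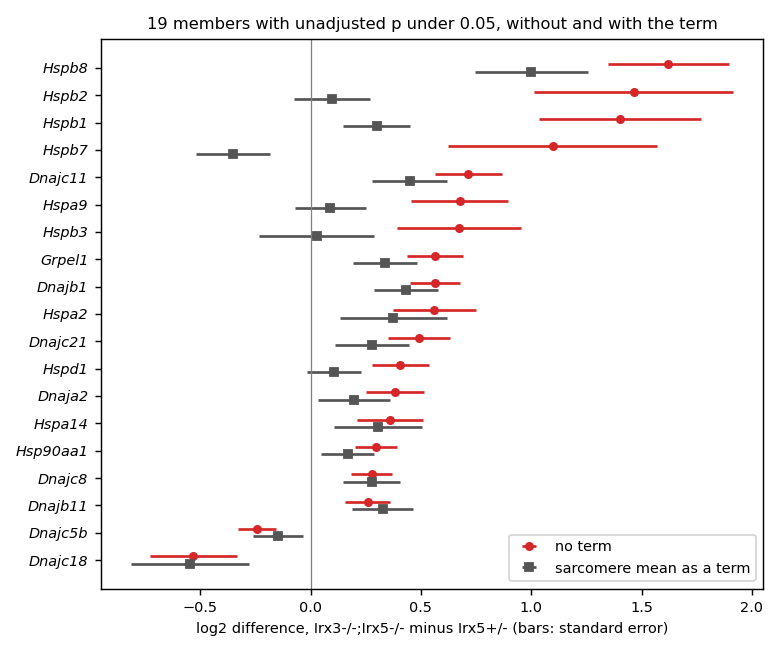
Log2 difference of double mutants from the reference (horizontal axis, bars are SE) for the 19 members with an unadjusted p under 0.05, from the fit without (circles) and with (squares) the sarcomere mean as a term. Hspb7 moves from 1.10 to -0.35 and Hspb2 from 1.46 to 0.10, while Hspb8 moves from 1.62 to 1.00, Dnajb1 from 0.56 to 0.43 and Dnajb11 from 0.26 to 0.33.

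The members without a location, and those caught by prefix only, showed few differences. Dnajc22 read 6.77, 6.62 and 6.78 in Irx5-/- hearts, below the reference at 7.04, 7.0 and 7.23 (-0.37 ± 0.12, adjusted p = 0.36). Hspbap1 read 7.62, 7.40 and 7.16 in Irx5-/- hearts, just above the reference at 7.13, 7.15 and 6.97 (0.31 ± 0.12, adjusted p = 0.42), and was -0.26 ± 0.12 in double mutants against Irx5-/- hearts. Without Irx5-/- replicate 1 these Hspbap1 differences were 0.20 and -0.15. Every value of Dnajc22 and Hspbap1 lay below the lowest array median of 7.89, so both lie low on the scale of the array. The other 5 genes of these classes did not reach an unadjusted p of 0.05 in any comparison.

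Partner genes from lists made for this comparison were counted in the same way in double mutants against the reference, with 0 called. Over all genes 43.9% were above 0 in this comparison, 7.9% were higher and 5.56% lower at an unadjusted p under 0.05. Of 22 measured heat shock factors and cytosolic co-chaperones, 19 were above 0 (median 0.17), with 6 higher and 0 lower at an unadjusted p under 0.05. Fkbp4, an HSP90 co-chaperone, read 10.79, 10.22 and 10.76 in the reference and 11.15, 11.25, 11.19 and 11.34 in double mutants, without overlap (0.64 ± 0.13, adjusted p = 0.111). Cryab, a small heat shock protein without the prefix, read 11.02, 10.10 and 9.37 in the reference and 11.16, 11.39, 11.66 and 11.42 in double mutants, also without overlap. It was 1.01 ± 0.35 above the reference in Irx3-/-;Irx5+/- (adjusted p = 0.887) and 0.86 ± 0.37 in Irx5-/- hearts (adjusted p = 0.445), which overlapped it. Stip1 (HOP), which links HSP70 to HSP90, was 0.62 ± 0.16 (adjusted p = 0.158) and Bag2, an inhibitor of the ubiquitin ligase CHIP, 0.82 ± 0.22 (adjusted p = 0.164) higher. All 8 subunits of the cytosolic chaperonin TRiC, which folds actin and tubulin, were above 0 (median 0.35), 5 of them at an unadjusted p under 0.05, with Cct4 at 0.59 ± 0.14 (adjusted p = 0.131) and Cct7 at 0.60 ± 0.16 (adjusted p = 0.158).

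Of 17 genes of mitochondrial import, folding and proteolysis, 16 were above 0 (median 0.28) and 6 were higher at an unadjusted p under 0.05. Lonp1, the matrix protease, was 0.61 ± 0.22 and Timm50, an import receptor, 0.50 ± 0.18 higher (both adjusted p = 0.259). Of 22 genes of ER folding and the unfolded protein response, 8 were above 0 (median -0.04), with 3 higher and 1 lower at an unadjusted p under 0.05. Herpud1, an ER stress-induced degradation factor, was 0.40 ± 0.16 and Ddit3 (CHOP) 0.42 ± 0.17 higher (both adjusted p = 0.298), while Pdia3, a disulphide isomerase, was at -0.22 ± 0.09 (adjusted p = 0.334). The ER list differed between comparisons. Against the reference, 7 of its 22 genes were above 0 in Irx3-/-;Irx5+/- hearts (median -0.05, background 50%). In Irx5-/- hearts 15 were (median 0.08, background 44.4%). The part of the sarcomere, endothelial and other marker differences in these partner gene values was not tested.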

How the data were processed

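RNA from E12.5 hearts was amplified from 1 ng of total RNA and hybridised to 14 arrays, per the labels' protocols. The deposited values are log2 intensities that the authors computed with RMA over all arrays in R's affy package, per the file headers, which also name limma with Benjamini-Hochberg adjustment and a floor of 3 on group means, below which 0 probe sets fell. No build is given in the sources used here. Of 28763 probe sets, 21776 name 1 gene, 1592 several and 5395 none in the platform annotation, and only the first were used. The highest-mean probe set represented each of 19931 genes, of which 998 had several.

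No further normalization was applied. Group means over all 14 arrays were fitted with limma 3.58.1 in R 4.3.3 (lmFit, eBayes, two-sided), with adjustment over all genes and a threshold of 0.05. Such data give no counts, so the number of arrays limits precision. The fit was tested on simulated data. Named members are the smallest p-values in each comparison, the most abundant and the widest-ranging of each class and its standard members, and up to 3 per partner list and comparison. The members, the lists and the alternatives, which cover probe set choice, filtering, centring, array weights, trend, the arrays fitted, the replicate block, a sarcomere term and each array left out, were chosen with earlier results of these data known.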

Additional observations from a re-analysis of the deposited data

Results flagged for a closer look

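In groups of 4 arrays, an array was singled out where its gap to the nearest other array exceeded Dixon's 95% critical share of the group's range. The check covered the members named under the rule above, many of them picked for a small p or a wide range. Of 96 member and group pairs checked, 9 met this. The nominal rate is about 1 in 20, but the pairs share the same arrays and the rate over all genes is not given. In double mutants replicate 4 stood apart for 3 members: low for Dnajb1 at 9.26 (nearest other array 9.51), low for Hspb8 at 9.78 (nearest 9.94) and high for Dnajc21 at 10.35 (nearest 10.04). Double mutant replicate 1 was low for Hspa4 at 10.99 (nearest 11.12).

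In Irx3-/-;Irx5+/- hearts replicate 1 was high for Dnajc9 at 10.57 (nearest 10.41) and low for Hspa12a at 7.59 (nearest 7.89). Replicate 2 was high for Hspb6 at 9.91 (nearest 9.52), and replicate 3 was high for Dnajb11 at 10.79 (nearest 10.52). Replicate 4, the array whose description names another genotype, was high for Hspb3 at 9.20 (nearest 8.75). All of these are log2 intensities.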

How the results depend on the processing

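Members called stayed at 0 in all comparisons under probe set averaging, trend and robust fitting, centring, the filter on low genes, the replicate block and the sarcomere term. In double mutants against the reference the count was 1 (Hspb8) with array weights and 1 with only the compared arrays, and 0 to 1 with single arrays left out (Hspb1 without Irx5+/- replicate 1). For any difference between genotypes it was also 0 to 1, Hspb8 passing without Irx5-/- replicate 2 (adjusted p = 0.0235). At an unadjusted p under 0.05, counts chosen after seeing the data, the sarcomere term gave 3, 7 and 8 members against the reference, 2 for the interaction and 8 for any difference. It turned Hspb7 in double mutants to -0.35. In double mutants against Irx3-/-;Irx5+/- there were 10 members with array weights, 10 after centring and 12 with only the compared arrays. Against Irx5-/- there were 2 with only the compared arrays and 2 with the genes above the median level, which also gave 2 for the interaction, and Irx5-/- against the reference gave 7 with only the compared arrays. Leaving out single arrays gave 2 to 9 members in Irx3-/-;Irx5+/-, 7 to 18 in Irx5-/- and 13 to 20 in double mutants against the reference. It gave 3 to 10 in double mutants against Irx3-/-;Irx5+/-, 4 to 11 against Irx5-/-, 3 to 5 for the interaction and 9 to 19 for any difference. Replicate numbers share no stated litter or day. Residuals of 19 same-numbered pairs correlated at -0.179 to 0.191 (median -0.055), within the range of the other 54 pairs (-0.353 to 0.299). Residuals sum to 0 within each group, so these correlations cannot settle whether equal numbers share a source. With the replicate number as a block, 3 members were under an unadjusted p of 0.05 in double mutants against Irx5-/- and 8 for any difference, and only 2 arrays correlated best with their own number. Apart from the sarcomere term against the reference, shares of all genes under these settings are not given. Whether the shifts are particular to the members cannot be read from these counts, and the causes of the shifts were not tested.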
